A study of Homo sapiens with 15 samples.

Results

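The 6 genes UGT2B7, UGT2B10, UGT2B11, UGT2B15, UGT2B17 and UGT2B28 encode UDP-glucuronosyltransferases of the endoplasmic reticulum and were followed across 5 sublines of VCaP, an androgen-responsive prostate cancer cell line. They were chosen by name from the UGT2B cluster on chromosome 4 and matched to the count tables by gene identifier, which gave 6 of 6 genes among the 58381 genes listed. VCaP-T was kept in steroid-stripped medium with 10 nM testosterone for 7 months. VCaP-CT was derived from it over 10 further months in low testosterone, stated as 0.1 nM in the treatment protocol and as 10 nM in the sample labels. To obtain VCaP-CT-ER, VCaP-CT cells were grown under 10 µM enzalutamide, an antiandrogen drug, until growth returned. VCaP-CT-BR came from VCaP-CT under bicalutamide, an older antiandrogen, and its sample label also mentions enzalutamide once the cells no longer responded to bicalutamide. VCaP-CT-BR-ER followed from VCaP-CT-BR under enzalutamide. All 5 sublines therefore share the testosterone period, and all but VCaP-T share the low-testosterone period. Each subline was derived once and sequenced as 3 libraries, so the drug, the months in culture and the single derivation cannot be told apart. The p-values measure the spread between libraries of the same subline, estimated over all 15 libraries, and not the spread between derivations.

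UGT2B enzymes attach glucuronic acid, taken from UDP-glucuronic acid, to steroids and other lipophilic molecules, which makes them soluble and lets transporters carry them out of the cell. UGT2B15 and UGT2B17 are the main enzymes that inactivate dihydrotestosterone and its reduced metabolites in the prostate, and in prostate cancer cells androgens are known to lower both transcripts. UGT2B7 conjugates a wide range of steroids and drugs, UGT2B28 also accepts androgens and oestrogens, UGT2B10 is best known for nitrogen-containing drugs, and UGT2B11 has few established substrates.

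The 6 genes lie in 1 stretch of chromosome 4 (GRCh38). By the counting annotation, UGT2B17 spans chr4:68537184-68568527 and UGT2B15 spans chr4:68646630-68670628, both on the minus strand. UGT2B10 (chr4:68815993-68831196) and UGT2B7 (chr4:69051363-69112987) are read from the plus strand, UGT2B11 (chr4:69199951-69214731) from the minus strand and UGT2B28 (chr4:69280499-69295050) from the plus strand. UGT2B4, a bile acid-conjugating relative that was not among the 6, follows at chr4:69480165-69526014 on the minus strand. The coding sequences are close copies. UGT2B15 and UGT2B17 were identical at 96.5% of aligned positions, UGT2B11 and UGT2B28 at 97%, and UGT2B10 and UGT2B11 at 95%, whereas UGT2B15 and UGT2B7 shared 85.1%.

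The promoters differ more than the coding sequences do, and they are shown for UGT2B15, which had the largest increase of the 6 in the step to VCaP-CT-ER, beside its neighbours in the cluster. The reference table of promoters (RefSeq, GRCh38.p14) held 4 of the 6 genes. UGT2B17 and UGT2B28 had no entry. The 250 bases before each start site are printed 5′ to 3′ along the gene, and capitals mark every match to 3 short motifs searched on both strands: the FOXA motifs TGTTTAC and TGTTTGC, and the hexamer AGAACA of steroid response elements.
UGT2B15: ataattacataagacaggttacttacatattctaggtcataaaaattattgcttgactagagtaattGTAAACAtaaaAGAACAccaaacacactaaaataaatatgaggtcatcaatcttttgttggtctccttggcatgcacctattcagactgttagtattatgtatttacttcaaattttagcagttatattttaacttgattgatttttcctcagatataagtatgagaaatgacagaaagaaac
UGT2B7: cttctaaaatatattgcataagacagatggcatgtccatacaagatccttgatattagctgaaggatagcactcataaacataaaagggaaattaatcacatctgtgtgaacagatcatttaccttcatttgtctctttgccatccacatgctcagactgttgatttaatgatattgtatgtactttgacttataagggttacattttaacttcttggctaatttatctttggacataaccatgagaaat
UGT2B10: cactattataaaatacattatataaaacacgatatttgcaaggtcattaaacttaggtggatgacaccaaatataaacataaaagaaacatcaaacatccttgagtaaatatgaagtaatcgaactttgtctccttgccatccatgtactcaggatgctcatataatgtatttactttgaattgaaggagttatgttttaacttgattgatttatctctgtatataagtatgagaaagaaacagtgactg
UGT2B11: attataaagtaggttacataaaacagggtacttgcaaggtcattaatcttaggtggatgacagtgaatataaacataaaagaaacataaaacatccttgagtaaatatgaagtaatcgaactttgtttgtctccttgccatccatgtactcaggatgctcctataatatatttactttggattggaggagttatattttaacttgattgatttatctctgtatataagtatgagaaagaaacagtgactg
These windows are chr4:68670653-68670902 (minus strand) for UGT2B15, chr4:69096224-69096473 (plus strand) for UGT2B7, chr4:68815744-68815993 (plus strand) for UGT2B10 and chr4:69214749-69214998 (minus strand) for UGT2B11. UGT2B15 alone among the 4 windows held matches. A FOXA motif, TGTTTAC read on the opposite strand, lay at bases -183 to -177 from the start site and a steroid response hexamer at bases -172 to -167. Among all 35116 promoters of the table, cut to the same 250 bases, 12.4% held AGAACA, 2.98% held TGTTTAC and 3.23% held TGTTTGC, so a match is common for the first and less so for the others. The window of UGT2B10 was identical to that of UGT2B11 at 90.2% of positions and to that of UGT2B15 at 68.7%, and the UGT2B7 window matched UGT2B15 at 58.4%. The bases aligned with the UGT2B15 stretch from -183 to -167 are shown next, with capitals for bases that differ from UGT2B15 or are inserted.
UGT2B15: gtaaacataaaagaaca
UGT2B10: AtaaacataaaagAaaca
UGT2B7: AtaaacataaaaGgGaAa
UGT2B11: AtaaacataaaagAaaca
UGT2B10 and UGT2B11 kept 16 of the 17 bases and carried 1 inserted base within the hexamer, and UGT2B7 kept 14 of 17. These matches are a description of letters in the windows and do not show binding.

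The 15 libraries held 33665716 to 46935279 counted fragments. All 6 genes passed the filter on low counts, although a gene could pass through the 1 subline in which it was high. Levels are given as counts and as counts per 1000000 counted fragments (CPM) on library sizes normalised by the trimmed mean of M-values. They were low throughout. The summed level of the 6 genes was 10 ± 0.454 CPM in VCaP-T (mean ± SD, n = 3, as for all levels), 2.63 ± 0.178 CPM in VCaP-CT, 8.07 ± 1.25 CPM in VCaP-CT-ER, 1.04 ± 0.195 CPM in VCaP-CT-BR and 0.796 ± 0.124 CPM in VCaP-CT-BR-ER. A library total puts 3 counts, taken as the floor, at 0.0639 to 0.0891 CPM. Fragments that fitted several of these near-identical genes equally well were not counted, so each level is that of the distinguishing parts of the transcript. Of the 75-base windows of the counted exons, 15.1% in UGT2B15 and in UGT2B17 occurred a second time in the cluster, against 2.46% in UGT2B7 and 0.0506% in UGT2B4. UGT2B10 had 15%, UGT2B11 had 17.9% and UGT2B28 had 13.2% of such windows, shared mainly with neighbouring pseudogenes. Levels between genes are therefore less certain than levels of 1 gene between sublines.

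**Figure D1:**
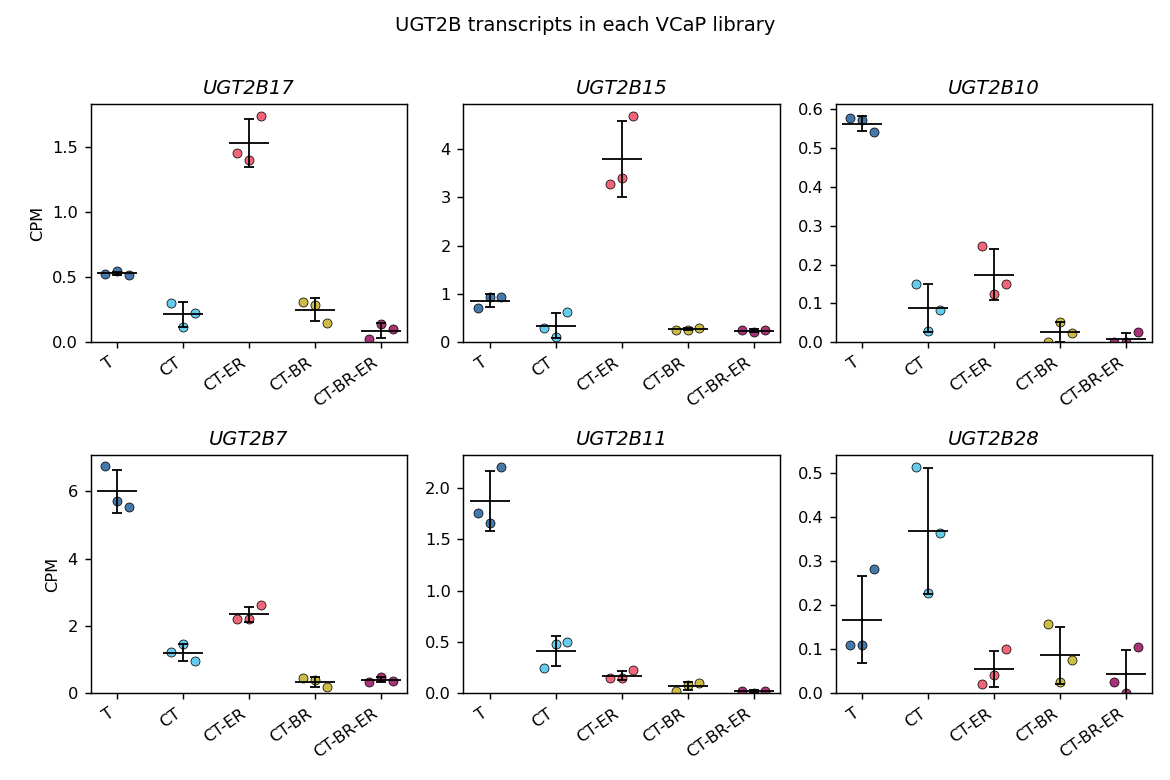
Level of each UGT2B gene in CPM (linear axis from 0) in the 15 VCaP libraries. Points are libraries, horizontal lines are means and bars are SD (n = 3). UGT2B15 and UGT2B17 were highest in VCaP-CT-ER, UGT2B7, UGT2B10 and UGT2B11 were highest in VCaP-T, and UGT2B28 had its highest mean, 0.368 CPM, in VCaP-CT.

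Of the 6 genes, UGT2B15 showed the largest increase in any of the 4 derivation steps. Its counts were 26, 34 and 40 in VCaP-T, then 10, 4 and 22 in VCaP-CT, and 158, 163 and 189 in VCaP-CT-ER. VCaP-CT-BR had 10, 10 and 12 counts and VCaP-CT-BR-ER had 10, 8 and 10. The 3 VCaP-CT-ER libraries stood above all others, and the libraries of VCaP-CT and of both bicalutamide-derived sublines overlapped. The means were 0.861 ± 0.126 CPM in VCaP-T, 0.344 ± 0.253 CPM in VCaP-CT, 3.79 ± 0.786 CPM in VCaP-CT-ER, 0.273 ± 0.0214 CPM in VCaP-CT-BR and 0.241 ± 0.0227 CPM in VCaP-CT-BR-ER. The order of levels was VCaP-CT-ER over VCaP-T (adjusted p = 3.35e-08, edgeR quasi-likelihood test with Benjamini-Hochberg adjustment, as for every adjusted p) and VCaP-T over VCaP-CT (0.00222 by the same adjusted p), while VCaP-CT and both bicalutamide-derived sublines did not differ from their neighbours beyond their spread.

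UGT2B17, whose protein inactivates testosterone and dihydrotestosterone alike, was likewise highest in VCaP-CT-ER and next in VCaP-T. VCaP-T had 19, 20 and 22 counts, VCaP-CT had 10, 4 and 8, and VCaP-CT-ER had 70, 67 and 70. VCaP-CT-BR had 12, 11 and 6 and VCaP-CT-BR-ER had 1, 5 and 4. Every VCaP-CT-ER library was above every VCaP-T library, and those were above the rest. The means were 0.528 ± 0.0141 CPM in VCaP-T, 0.213 ± 0.0944 CPM in VCaP-CT, 1.53 ± 0.183 CPM in VCaP-CT-ER, 0.249 ± 0.0878 CPM in VCaP-CT-BR and 0.0882 ± 0.0575 CPM in VCaP-CT-BR-ER. VCaP-CT and VCaP-CT-BR did not differ beyond their spread (adjusted p = 0.684), nor did VCaP-CT and VCaP-CT-BR-ER (adjusted p = 0.0521).

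UGT2B7, the enzyme with the broadest range of substrates in the set, was the most abundant of the 6 per counted length in VCaP-T. Its counts were 245, 210 and 235 there, 40, 51 and 34 in VCaP-CT and 107, 106 and 105 in VCaP-CT-ER. They were 17, 15 and 7 in VCaP-CT-BR, then 14, 18 and 14 in VCaP-CT-BR-ER. The first 3 sublines did not overlap with each other or with the remaining pair, which overlapped. Means were 6 ± 0.653, 1.2 ± 0.251, 2.35 ± 0.227, 0.336 ± 0.142 and 0.398 ± 0.0788 CPM in the same order. Each neighbour in the order VCaP-T, VCaP-CT-ER, VCaP-CT and VCaP-CT-BR-ER differed (adjusted p of 4.64e-08, 0.000145 and 2.83e-05), whereas the last pair, VCaP-CT-BR-ER over VCaP-CT-BR, did not pass the test (adjusted p = 0.591).

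UGT2B11 and UGT2B10, neighbours of UGT2B7, fell with androgen withdrawal and were close to the floor in the bicalutamide lineage. UGT2B11 had 64, 61 and 94 counts in VCaP-T, 8, 17 and 18 in VCaP-CT, 7, 7 and 9 in VCaP-CT-ER, then 1, 3 and 4 counts in VCaP-CT-BR, and 1, 0 and 1 counts in VCaP-CT-BR-ER. UGT2B10 had 21, 21 and 23 counts in VCaP-T, 5, 1 and 3 in VCaP-CT, 12, 6 and 6 in VCaP-CT-ER, then 0, 2 and 1 counts in VCaP-CT-BR, and 0, 0 and 1 counts in VCaP-CT-BR-ER. Both genes were highest in all 3 VCaP-T libraries. From pooled counts, UGT2B11 was 110-fold lower in VCaP-CT-BR-ER than in VCaP-T (95% exact binomial interval 30.1 to 915, counting error only), with 2 counts against 219. UGT2B10 was 65.4-fold lower (interval 11.3 to 2621), with 1 count against 65. Below VCaP-T, UGT2B10 levels did not differ between neighbours in the order, and UGT2B11 differed between VCaP-CT and VCaP-CT-ER (adjusted p = 0.00711) but not further down.

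UGT2B28, an enzyme that accepts androgens and oestrogens, was the lowest of the 6 per counted length in VCaP-T and had its highest mean in VCaP-CT. It had 4, 4 and 12 counts in VCaP-T, 17, 8 and 13 in VCaP-CT, 1, 2 and 4 in VCaP-CT-ER, then 6, 1 and 3 counts in VCaP-CT-BR, and 1, 0 and 4 counts in VCaP-CT-BR-ER. VCaP-T and VCaP-CT overlapped, and no neighbours in the order of its levels passed the test, with adjusted p values from 0.0776 to 0.862.

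Since read counts grow with transcript length, levels between genes were compared as transcripts per 1000000 transcripts (TPM) over the counted exon length. UGT2B7 made up 58.8 ± 4.78% of the summed TPM of the 6 genes in VCaP-T and 44.3 ± 13.1% in VCaP-CT. In VCaP-CT-ER the largest share was that of UGT2B15, 47.9 ± 2.45%, followed by UGT2B7 with 27.5 ± 1.53% and UGT2B17 with 19.5 ± 0.755%. The summed level was 11.9 ± 0.508 TPM in VCaP-T and 9.84 ± 1.48 TPM in VCaP-CT-ER. The totals thus lay near each other while the make-up did not: UGT2B15 and UGT2B17 held 9.23 ± 1.65% and 5.65 ± 0.386% in VCaP-T. When the counts of the 6 genes were summed and fitted as 1 feature, VCaP-CT-ER was 0.32 ± 0.11 lower than VCaP-T on the log2 scale (estimate -0.32, SE, adjusted p = 0.0118). UGT2B4 was more abundant than the 6 genes together in VCaP-T, with 58 TPM, and in VCaP-CT-ER it had 9.52 TPM.

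**Figure D2:**
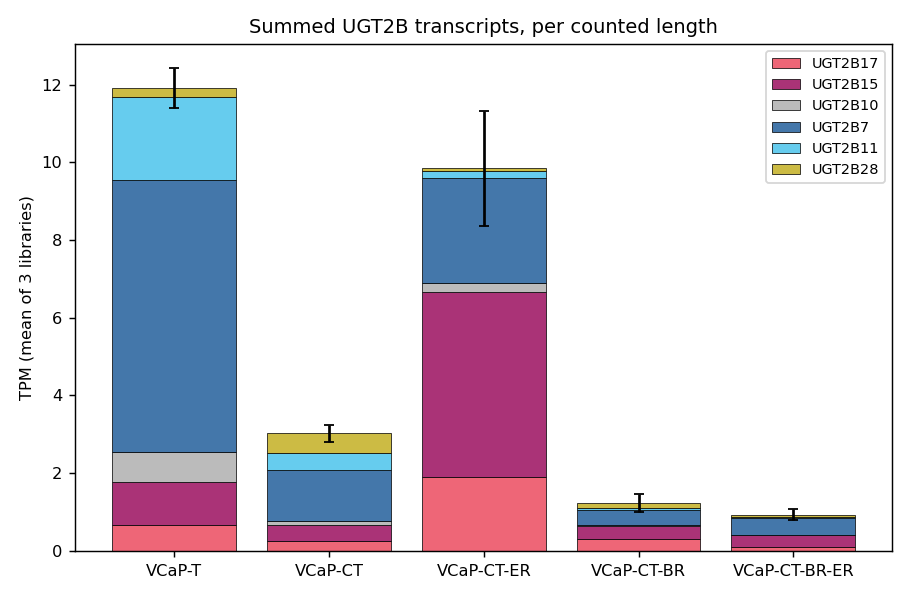
Summed level of the 6 UGT2B genes in TPM (linear axis), mean of 3 libraries per subline, with each gene as 1 layer and the SD of the sum as a bar. UGT2B7 was the largest layer in VCaP-T and UGT2B15 in VCaP-CT-ER, with sums of 11.9 and 9.84 TPM.

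Long growth in low testosterone, VCaP-CT against VCaP-T, went with lower levels of 5 of the 6 genes. UGT2B10 had a log2 fold change of -2.66 ± 0.47 (SE, as for all log2 fold changes), UGT2B7 of -2.31 ± 0.17, UGT2B11 of -2.18 ± 0.27, and UGT2B15 and UGT2B17 of -1.31 ± 0.35 and -1.31 ± 0.37. Without VCaP-CT replicate 3, the library with 22 counts of UGT2B15, the UGT2B15 value was -2.07, and without VCaP-CT replicate 2 it was -0.90. For UGT2B10 the value was -3.26 without VCaP-CT replicate 1 and -2.25 without VCaP-CT replicate 2. In the main fit the adjusted p values of the 5 genes ran from 1.36e-10 for UGT2B7 to 0.00395 for UGT2B17. UGT2B28 had a log2 fold change of 1.08 ± 0.52 and did not pass (adjusted p = 0.0776). In this comparison 65.3% of the 19621 genes tested were called in either direction, 12.2% were called and at least 2-fold lower, and 8.6% were called and at least 2-fold higher. In the main fit all 5 called members were at least 2-fold lower, and the median log2 fold change of the 6 was -1.75 against 0.03 over all genes tested.

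In the enzalutamide step from VCaP-CT, 3 members rose and 2 fell. UGT2B15 rose with a log2 fold change of 3.44 ± 0.27 (adjusted p = 5.99e-10), UGT2B17 with 2.83 ± 0.31 (adjusted p = 7.68e-08), and UGT2B7 with 0.96 ± 0.19 (adjusted p = 0.000145). The UGT2B15 value was 4.19 without VCaP-CT replicate 3 and 3.02 without VCaP-CT replicate 2. UGT2B28 fell, with -2.76 ± 0.64 (adjusted p = 0.000841), and so did UGT2B11, with -1.27 ± 0.38 (adjusted p = 0.00711). The UGT2B28 value was -3.41 without VCaP-CT-ER replicate 3 and -2.35 without VCaP-CT-ER replicate 1. UGT2B10, with 0.99 ± 0.57, did not pass (adjusted p = 0.138). The called share of all genes was 60.9% in either direction, 7.96% for called and at least 2-fold higher and 9.58% for called and at least 2-fold lower, against 2 of 6 members in each of the latter. UGT2B4, beyond the set, fell too (log2 fold change -1.23 ± 0.08, adjusted p = 4.02e-11). Against VCaP-T, the starting point, VCaP-CT-ER had all 6 members called where 69% of all genes were. UGT2B15 (2.12 ± 0.23) and UGT2B17 (1.52 ± 0.25) lay above VCaP-T, and UGT2B7 (-1.36 ± 0.15), UGT2B10 (-1.66 ± 0.39), UGT2B11 (-3.45 ± 0.30) and UGT2B28 (-1.68 ± 0.73, adjusted p = 0.0465) lay below it. The call of UGT2B28 was lost without VCaP-T replicate 3, the library with 12 counts (adjusted p = 0.306), without VCaP-CT-ER replicate 1 (0.159) or replicate 2 (0.116), and with DESeq2 (0.115).

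**Figure D3:**
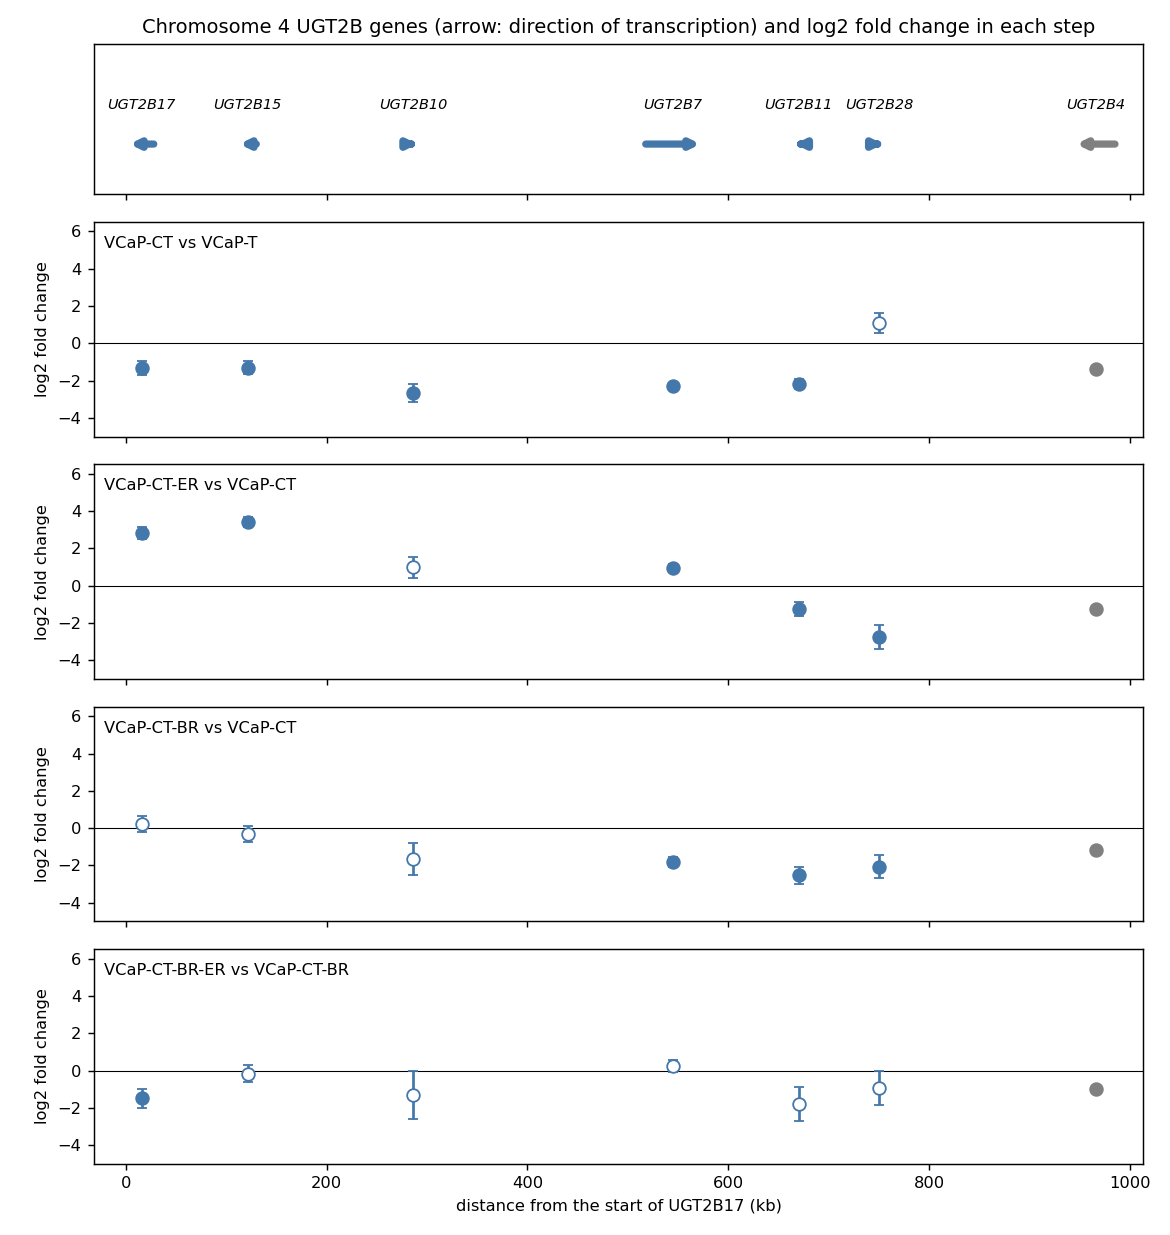
Position of the UGT2B genes along chromosome 4 in kb from the start of UGT2B17 (top, arrows show the direction of transcription) and the log2 fold change of each in the 4 derivation steps (points, bars are SE; filled points passed an adjusted p of 0.05; UGT2B4, in grey, is not among the 6). In VCaP-CT-ER against VCaP-CT the values ran from 3.44 at UGT2B15 to -2.76 at UGT2B28.

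Lower levels were called for 3 of the 6 genes in the bicalutamide step from VCaP-CT. UGT2B11 had a log2 fold change of -2.54 ± 0.48, UGT2B28 of -2.06 ± 0.60 and UGT2B7 of -1.84 ± 0.27, with adjusted p values of 0.000145, 0.00662 and 8.4e-06. Without VCaP-CT-BR replicate 1 the UGT2B28 value was -2.78, and without VCaP-CT-BR replicate 2 it was -1.655 (adjusted p = 0.0375). UGT2B15 (-0.34 ± 0.43, adjusted p = 0.54), UGT2B17 (0.22 ± 0.43, adjusted p = 0.684) and UGT2B10 (adjusted p = 0.117) did not pass. For UGT2B15 the ratio of pooled counts, VCaP-CT-BR over VCaP-CT, was 0.789 with an interval of 0.475 to 1.31, and for UGT2B17 it was 1.17 with an interval of 0.65 to 2.14. UGT2B10 had 3 counts in VCaP-CT-BR against 9, a ratio of 0.296 with an interval of 0.0515 to 1.19. Called genes made up 53.2% of all tested, with 2.95% called and at least 2-fold higher and 7.01% called and at least 2-fold lower. Against VCaP-T, where 71.2% of genes were called, VCaP-CT-BR had 5 of 6 members called, all lower, from -1.08 ± 0.35 for UGT2B17 to -4.72 ± 0.37 for UGT2B11, with UGT2B28 at -0.98 ± 0.68 (adjusted p = 0.203). The UGT2B17 call had an adjusted p of 0.0522 without VCaP-CT-BR replicate 3.

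Enzalutamide after bicalutamide, VCaP-CT-BR-ER against VCaP-CT-BR, gave 1 call among the 6, where 42.9% of all genes were called, 4.21% as called and at least 2-fold higher and 3.77% as called and at least 2-fold lower. UGT2B17 fell with a log2 fold change of -1.49 ± 0.50 (adjusted p = 0.0211), from 12, 11 and 6 counts to 1, 5 and 4. That call did not hold when VCaP-CT-BR-ER replicate 1 (adjusted p = 0.122), VCaP-CT-BR replicate 1 (0.0866) or VCaP-CT-BR replicate 2 (0.0658) was left out. UGT2B15 had a log2 fold change of -0.18 ± 0.46 (adjusted p = 0.789), and the ratio of its pooled counts was 0.882 with an interval of 0.512 to 1.51. UGT2B7 had 0.25 ± 0.34 and UGT2B28 -0.94 ± 0.91, which did not pass. UGT2B11 had 2 counts against 8 (adjusted p = 0.12), a ratio of 0.252 with an interval of 0.0261 to 1.26, and UGT2B10 was at or under 3 counts in all 6 libraries.

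The enzalutamide step therefore differed between the 2 backgrounds for UGT2B15 and UGT2B17. The difference of the steps, with minus without earlier bicalutamide, was -4.32 ± 0.60 on the log2 scale for UGT2B17 (adjusted p = 3.97e-06) and -3.61 ± 0.57 for UGT2B15 (adjusted p = 2.02e-05), and both calls held in every alternative fit in which the gene was tested. Without VCaP-CT replicate 3 the UGT2B15 difference was -4.37. UGT2B7 (-0.71 ± 0.39, adjusted p = 0.14), UGT2B10 (-2.28 ± 1.46, adjusted p = 0.208), UGT2B11 (-0.54 ± 0.88, adjusted p = 0.642) and UGT2B28 (1.82 ± 1.25, adjusted p = 0.241) did not pass, the UGT2B10 and UGT2B11 values resting on libraries at or under 3 counts. UGT2B7 passed when VCaP-CT-BR replicate 3 was left out (-1.04, adjusted p = 0.0273). Of all genes tested, 49.7% had a called difference. The 2 endpoints, whose libraries also entered the difference of the steps, were compared directly. That comparison also separated UGT2B7, UGT2B10 and UGT2B11, whose differences of the steps did not pass. Set against VCaP-CT-ER, where 45.9% of genes were called, 5 of 6 members were lower in VCaP-CT-BR-ER, with log2 fold changes of -4.09 ± 0.36 for UGT2B17, -3.95 ± 0.28 for UGT2B15, and -2.55 ± 0.23 for UGT2B7. UGT2B10 was 20.4-fold lower by pooled counts (interval 3.33 to 841) and UGT2B11 was 9.79-fold lower (interval 2.42 to 85.7). UGT2B28 had -0.24 ± 0.98 (adjusted p = 0.862).

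VCaP-CT-ER also stood above VCaP-CT-BR in 4 of 6 members, where 55.9% of genes were called: UGT2B15 by 3.77 ± 0.28, UGT2B7 by 2.80 ± 0.23 and UGT2B17 by 2.60 ± 0.29 on the log2 scale, and UGT2B10 by 6.87-fold in pooled counts (interval 2.09 to 35.6). UGT2B11 (1.27 ± 0.55, adjusted p = 0.0565) did not pass there. VCaP-CT-BR-ER had all 6 members below VCaP-T, where 70.2% of genes were called, with -1.83 ± 0.36 for UGT2B15, -2.57 ± 0.43 for UGT2B17 and -3.91 ± 0.20 for UGT2B7 beside the folds of UGT2B10 and UGT2B11 given above. The UGT2B28 value there, -1.92 ± 0.79, was no longer called without VCaP-T replicate 3 (adjusted p = 0.232), VCaP-CT-BR-ER replicate 1 (0.113) or VCaP-CT-BR-ER replicate 2 (0.129), nor with DESeq2 (0.0775). Against VCaP-CT, 4 of 6 members were lower in VCaP-CT-BR-ER, where 52.5% of genes were called. These were UGT2B11 (24-fold by pooled counts, interval 6.26 to 205), UGT2B28 (-3.00 ± 0.69), UGT2B7 (-1.59 ± 0.26) and UGT2B10, whose 1 count against 9 was not called without VCaP-CT-BR-ER replicate 1 (adjusted p = 0.0874), VCaP-CT-BR-ER replicate 2 (0.076) or VCaP-CT replicate 1 (0.124). UGT2B15 (-0.52 ± 0.45, adjusted p = 0.351) and UGT2B17 (-1.27 ± 0.53, adjusted p = 0.0521) did not pass. The comparisons share sublines, so these counts are not independent of each other.

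Of 13 further UDP-glucuronosyltransferase genes listed, 11 were matched by symbol and 2, UGT2B4 and UGT1A1, passed the filter. UGT1A genes share exons, and fragments that fell on several genes were not counted, so their counts may understate them. UGT2B4 fell in all 4 steps, with mean levels of 54.9 ± 3.37 CPM in VCaP-T, 21.5 ± 1.05 CPM in VCaP-CT, 9.19 ± 0.449 CPM in VCaP-CT-ER, 9.59 ± 0.995 CPM in VCaP-CT-BR and 4.8 ± 0.499 CPM in VCaP-CT-BR-ER. Each step had an adjusted p of at most 3.07e-08. UGT1A1, the bilirubin-conjugating enzyme, had 17, 22 and 27 counts in VCaP-T, 9, 7 and 13 counts in VCaP-CT-ER, 0 in all 6 VCaP-CT and VCaP-CT-BR libraries, and 1, 1 and 0 in VCaP-CT-BR-ER. Against the floor of 3 counts per library in VCaP-CT, UGT1A1 was at least 6.55-fold higher in VCaP-T and at least 2.52-fold higher in VCaP-CT-ER.

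Of 6 genes listed for UDP-glucuronic acid supply and related steps, all 6 were lower in VCaP-CT than in VCaP-T, where 65.3% of all genes were called. For VCaP-CT-ER against VCaP-CT, where 60.9% of all genes were called, 3 were higher, 2 lower and 1 not called. UGDH, which oxidises UDP-glucose to UDP-glucuronic acid, had 122 ± 4.49 CPM in VCaP-T, 49.7 ± 2.93 CPM in VCaP-CT and 112 ± 4.95 CPM in VCaP-CT-ER (log2 fold changes of -1.29 ± 0.06 and 1.18 ± 0.05). UGP2, which makes UDP-glucose, had 59.2 ± 4.54, 26.2 ± 2.36 and 84.2 ± 6.04 CPM (-1.17 ± 0.08 and 1.68 ± 0.08). SLC35D1, which carries UDP-glucuronic acid into the endoplasmic reticulum, had 20.8 ± 1.29, 13 ± 0.29 and 28.2 ± 1.97 CPM (-0.68 ± 0.08 and 1.12 ± 0.08). PGM1, which makes the precursor glucose 1-phosphate, and the transporter gene SLC35D2 fell in both steps, with -0.46 ± 0.06 and -0.31 ± 0.06 for PGM1 and -0.59 ± 0.12 and -0.34 ± 0.13 for SLC35D2. UXS1, which turns UDP-glucuronic acid into UDP-xylose, was the gene not called. SLC35D2 and UXS1, like PGM1, lay outside the rule for named genes. In VCaP-CT-BR against VCaP-CT, where 53.2% of all genes were called, 2 of the 6 were higher and 1 lower. In VCaP-CT-BR-ER against VCaP-CT-BR, where 42.9% of all genes were called, 3 were higher and 1 lower. UGDH rose by 0.36 ± 0.05 in that last step, where UGT2B15 was not called.

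Glucuronide exporters did not move one way. Of 6 listed genes for export and hydrolysis, 4 were lower and none higher in VCaP-CT against VCaP-T, where 65.3% of all genes were called. In VCaP-CT-ER against VCaP-CT, where 60.9% of all genes were called, 2 were higher and 3 lower. ABCC3, an exporter of steroid glucuronides, had 19.7 CPM in VCaP-T, 1.12 CPM in VCaP-CT and 0.746 CPM in VCaP-CT-ER (log2 fold changes of -4.14 ± 0.13 and -0.58 ± 0.19). ABCC4, which also carries conjugated steroids, had 315 CPM, 64.1 CPM and 53.6 CPM (-2.30 ± 0.06 and -0.26 ± 0.06), and ABCC1 had -0.47 ± 0.18 in the enzalutamide step (adjusted p = 0.031). The exporter gene ABCC2, outside the rule for named genes, fell by 0.83 ± 0.29 in VCaP-CT (adjusted p = 0.0157) and rose by 1.10 ± 0.27 in the enzalutamide step (adjusted p = 0.00155), with means of 0.839, 0.471 and 1.01 CPM. In VCaP-CT-BR against VCaP-CT, where 53.2% of all genes were called, 1 gene of this list was lower and none higher. In VCaP-CT-BR-ER against VCaP-CT-BR, where 42.9% of all genes were called, 2 were higher and 2 lower.

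Enzymes that make or remove the substrates were mixed. Of 14 genes of androgen reduction and interconversion, 9 were tested. In VCaP-CT against VCaP-T 3 were higher and 3 lower, and in the enzalutamide step 4 and 3. The bicalutamide step had 3 higher and 3 lower, and VCaP-CT-BR-ER against VCaP-CT-BR had 2 and 3. The called shares of all genes in these comparisons were 65.3%, 60.9%, 53.2% and 42.9%. AKR1C3, which reduces androstenedione to testosterone, had 3.26 ± 0.244 CPM in VCaP-CT and 17.3 ± 1.6 CPM in VCaP-CT-ER. Its levels were 4.66 ± 0.508 CPM in VCaP-CT-BR and 1.89 ± 0.321 CPM in VCaP-CT-BR-ER. AKR1C3 thus rose by 2.40 ± 0.11 in the enzalutamide step and by 0.52 ± 0.12 in the bicalutamide step. It fell by 1.31 ± 0.13 in VCaP-CT-BR-ER against VCaP-CT-BR. AKR1C2, which reduces dihydrotestosterone, fell by 2.09 ± 0.24 in VCaP-CT and had 1.14 ± 0.26 in the enzalutamide step. HSD17B6, which can oxidise androstanediol back to dihydrotestosterone, had log2 fold changes of 1.77 ± 0.08 and -1.56 ± 0.08. Of 7 genes of steroid sulfation, the alternative conjugation route, 5 were tested, with 3 higher and 2 lower in VCaP-CT against VCaP-T and 0 higher and 3 lower in the enzalutamide step. PAPSS2, which makes the sulfate donor, fell by 2.83 ± 0.08 in the enzalutamide step, while SULT1A1, a phenol sulfotransferase, had 1.03 ± 0.07 in VCaP-CT and the steroid sulfatase STS had 1.01 ± 0.08 in the bicalutamide step. In the latter step 1 of the 5 was higher and 2 lower, and in VCaP-CT-BR-ER against VCaP-CT-BR 2 were higher and 2 lower. The sulfation counts stand beside the same called shares of all genes, 65.3%, 60.9%, 53.2% and 42.9% in the order of the comparisons.

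Of 18 androgen-induced genes, all tested, 6 were higher and 10 lower in VCaP-CT against VCaP-T, with a median log2 fold change of -0.25, and 10 were higher and 6 lower in VCaP-CT-ER against VCaP-CT, with a median of 0.47. KLK3, which encodes prostate-specific antigen, fell by 6.75 ± 0.06 and rose by 3.97 ± 0.05 in these steps, and HPGD, a prostaglandin-degrading enzyme, fell by 6.57 ± 0.09 and rose by 3.44 ± 0.08. TRPM8, a cation channel, went the other way in the enzalutamide step, with -9.39 ± 0.10. In the bicalutamide step 6 were higher and 10 lower, and in VCaP-CT-BR-ER against VCaP-CT-BR 9 were higher and 6 lower. Called genes made up 65.3%, 60.9%, 53.2% and 42.9% of all tested in these comparisons, in the order given.

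Among 10 factors known at UGT2B promoters 8 were tested. NR1H4, the bile acid receptor, fell outside the rule for named genes and was picked after its values were seen. It had 181, 164 and 144 counts in VCaP-CT-ER and at most 19 in any other library. CDX2, an intestinal factor, fell by 1.58 ± 0.13 in VCaP-CT-BR-ER against VCaP-CT-BR. It rose by 0.80 ± 0.14 in VCaP-CT against VCaP-T, by 0.71 ± 0.12 in the enzalutamide step and by 0.56 ± 0.12 in the bicalutamide step. Of the 8, 4 were higher and 3 lower in VCaP-CT against VCaP-T, and 6 and 1 in the enzalutamide step. The bicalutamide step had 4 higher and 2 lower, and VCaP-CT-BR-ER against VCaP-CT-BR had 2 and 2. Over all genes the called shares were 65.3%, 60.9%, 53.2% and 42.9% in these comparisons. The part of any of these factors in the UGT2B levels was not tested.

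**Figure D4:**
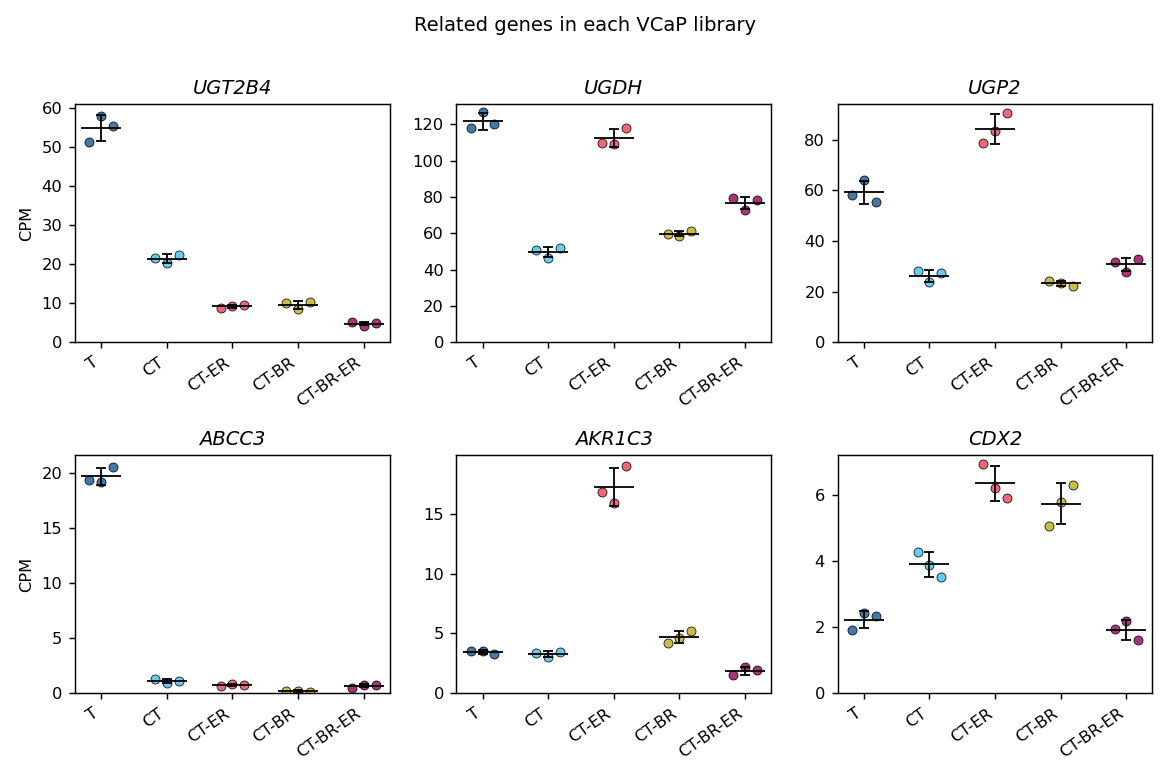
Level of UGT2B4 and of 5 genes of the glucuronidation pathway or its known regulators in CPM (linear axes from 0) in the 15 VCaP libraries. Points are libraries, lines are means and bars are SD (n = 3). UGDH and UGP2 were lower in VCaP-CT than in VCaP-T and VCaP-CT-ER, ABCC3 stayed under 2 CPM outside VCaP-T, and AKR1C3 had 17.3 CPM in VCaP-CT-ER.

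Genes near the cluster were mostly higher in VCaP-CT. Within 5 Mb of its outer edges, 34 further genes of 181 were tested. In VCaP-CT against VCaP-T 24 of them were higher and 6 lower, where 65.3% of all genes were called. Their median log2 fold change was 0.73, against -1.75 for the 6 UGT2B genes and 0.03 over all genes tested. In the enzalutamide step 9 were higher and 15 lower, in the bicalutamide step 12 and 7, and in VCaP-CT-BR-ER against VCaP-CT-BR 7 and 10. The called shares of all genes in these 3 comparisons were 60.9%, 53.2% and 42.9%. Inside the cluster, between UGT2B15 and UGT2B10, lay 1 further tested gene, ENSG00000250376 (chr4:68784618-68787474), which was outside the rule for named genes and is given after its values were seen. It had 6, 5 and 11 counts in VCaP-T, 2, 4 and 0 counts in VCaP-CT and 29, 19 and 20 counts in VCaP-CT-ER, against 0 in each VCaP-CT-BR library and 1 in each VCaP-CT-BR-ER library. Pooled counts of ENSG00000250376 were 3.3-fold higher in VCaP-T than in VCaP-CT (interval 1.3 to 9.95; adjusted p = 0.0278) and 8.64-fold higher in VCaP-CT-ER than in VCaP-CT (interval 3.77 to 24.4; adjusted p = 5.07e-05). On the UGT2B17 side the nearest tested genes were TMPRSS11F, UBA6-DT, the pseudogene POLR2MP1 and ENSG00000270228, with log2 fold changes in the enzalutamide step of -3.05, -0.82, -0.09 and -0.86. On the other side they were UGT2B4, ODAM, AMTN and UTP3, with -1.23, -0.08, 2.18 and -0.14. UTP3, a nucleolar protein 1393 kb beyond UGT2B28, had 36 to 64.4 CPM on average in the 5 sublines.

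Among themselves the 6 genes fell into groups, described by Pearson's r of log2 CPM over the 15 libraries, which share sublines and depth. UGT2B15 and UGT2B17 had an r of 0.909 and UGT2B7 and UGT2B10 had 0.909. UGT2B10 and UGT2B11 had 0.865, and UGT2B11 and UGT2B4 had 0.963. UGT2B15 and UGT2B11 had 0.289, and UGT2B28 had -0.0223 with UGT2B17 and 0.535 with UGT2B11. Values between groups could be intermediate: UGT2B15 had 0.601 with UGT2B7 and 0.586 with UGT2B10, and UGT2B17 had 0.667 and 0.649. The groups were thus not sharply separate. Of 13014 other genes whose mean log2 CPM reached 1, the most similar to UGT2B15 were SMIM14 (0.965), ATG2B (0.957) and the potassium channel gene KCNQ3 (0.951), whose mean rose from 1.56 CPM in VCaP-CT to 40 CPM in VCaP-CT-ER. For UGT2B17 they were CSAG1 (0.958), the adhesion molecule gene NCAM1 (0.95) and ELOVL4 (0.946). For UGT2B7 they were RNF10 (0.981), C1orf210 (0.979) and SLC22A3 (0.979), for UGT2B10 C15orf61 (0.968), STARD10 (0.954) and PLEKHG6 (0.954), for UGT2B11 TMEM125 (0.981), TNS3 (0.98) and WSB2 (0.978), and the 3 for UGT2B28 included ZC3H6 (0.871) and CDS2 (0.859).

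The label as prostate cells was checked against markers. All 8 listed markers of prostate luminal cells had over 3 counts in some library, with summed levels from 4046 CPM in VCaP-CT to 8914 CPM in VCaP-CT-ER. UGT2B genes are typical of liver and gut, so these cells' markers were examined too. Of 8 hepatocyte markers 5 had over 3 counts in some library, and APOB, FGB and HNF4A were at or under 3 counts in all. Their sum was 8.85 to 9.61 CPM in VCaP-T, 30.1 to 35.3 CPM in VCaP-CT, 61.8 to 73 CPM in VCaP-CT-ER, 40.5 to 42.8 CPM in VCaP-CT-BR and 35.2 to 46.6 CPM in VCaP-CT-BR-ER. Of 6 intestinal markers 4 passed 3 counts and FABP2 and APOA4 did not, with sums of 43.6 to 46.2 CPM in VCaP-T, 6.61 to 7.43 CPM in VCaP-CT, 19.3 to 21.7 CPM in VCaP-CT-ER, 8.56 to 9.73 CPM in VCaP-CT-BR and 4.9 to 5.29 CPM in VCaP-CT-BR-ER. Of 6 fibroblast markers 5 passed, with COL1A2 at or under 3 counts, and their sum reached 185 to 217 CPM in VCaP-CT-ER and 217 to 251 CPM in VCaP-CT-BR-ER against 24.5 to 25.4 CPM in VCaP-CT-BR, 10.1 to 11.1 CPM in VCaP-CT and 7.65 to 8.85 CPM in VCaP-T. Of 5 leukocyte markers 3 passed, with PTPRC and CD3E at or under 3 counts, and their sum was 45.5 to 59.6 CPM in VCaP-T and at most 2.46 CPM elsewhere. The part of these transcripts in the UGT2B levels was not tested. In bulk libraries fewer cells with a transcript and less of it per cell cannot be told apart.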

How the data were processed

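The authors sequenced RNA of the 5 VCaP sublines, 3 libraries each, aligned it with STAR 2.5.4b to GRCh38 and deposited raw counts per gene from featureCounts 1.6.2, run on read pairs without strand on GENCODE release 28. Fragments that mapped to several places or genes were not counted. The deposited counts were used as they stand, with gene symbols from GENCODE release 44. Other experiments of the study were not analysed here, and values of some genes of the lists are not reported here. The 6 genes, the gene lists and the tests were chosen with earlier results of these data known.

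Genes were filtered with filterByExpr at a minimum count of 10, which left 19621, and tested with edgeR 4.0.16 in R 4.3.3 by quasi-likelihood F tests, with TMM normalisation, a term per subline over all 15 libraries and Benjamini-Hochberg adjustment over all genes tested. A gene was called at an adjusted p under 0.05. The SE of a log2 fold change was derived from the test, as its size divided by the square root of its F statistic. The 10 pairs of sublines and the difference of the enzalutamide steps were fitted, and the fit was tested on simulated data. Ratios of genes at or near 3 counts come from pooled counts with 95% exact binomial intervals, which cover counting error only. CPM used the TMM library sizes, and TPM the counted exon length. Named genes were the 6 UGT2B genes, up to 3 called genes of each list with the largest change and an average log2 CPM of at least 0, up to 4 tested neighbours on each side, and the 3 genes most correlated with each member. Promoters were searched and aligned with Biopython 1.88. DESeq2 1.42.0, other scaling factors, other filters, the compared sublines alone, a replicate block and each library left out were tried as alternatives.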

Additional observations from a re-analysis of the deposited data

Results flagged for a closer look

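The response to the enzalutamide step differed between the 2 backgrounds for UGT2B15 and UGT2B17, the enzymes that inactivate dihydrotestosterone. With minus without earlier bicalutamide, the difference of the steps was -4.32 on the log2 scale for UGT2B17 (adjusted p = 3.97e-06, edgeR interaction contrast) and -3.61 for UGT2B15 (adjusted p = 2.02e-05). In 3 of 3 VCaP-CT-ER libraries both genes were above every VCaP-CT library, whereas VCaP-CT-BR-ER libraries were below those of VCaP-CT-BR for UGT2B17 and overlapped with them for UGT2B15. The cause was not tested.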

How the results depend on the processing

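At a minimum of 10 counts in every library no UGT2B gene was left to test. Fitting the compared sublines alone left fewer of the 6 genes past the filter, so the members called were 3 in VCaP-CT-ER against VCaP-CT, 1 in VCaP-CT-BR against VCaP-CT, 0 in VCaP-CT-BR-ER against VCaP-CT-BR, 3 in VCaP-CT-BR-ER against VCaP-CT-ER and 1 when it was set against VCaP-CT. All 13 calls lost there were of genes not tested. With libraries left out in turn, members called in VCaP-CT-BR-ER against VCaP-CT-BR ranged from 0 to 1. Directions turned for 3 values that were not called: UGT2B17 in the bicalutamide step (log2 fold changes from -0.064 without VCaP-CT replicate 2 to 0.55), UGT2B15 in the same step (from -0.74 to 0.40, the latter without VCaP-CT replicate 3) and UGT2B7 in VCaP-CT-BR-ER against VCaP-CT-BR (from -0.068 without VCaP-CT-BR replicate 3 to 0.51). UGT2B28 in VCaP-CT against VCaP-T was called without VCaP-CT replicate 2 (adjusted p = 0.046) or VCaP-T replicate 3 (0.0297), and UGT2B17 in VCaP-CT-BR-ER against VCaP-CT was called with factors from the 75th percentile (0.0451) and without VCaP-CT-BR-ER replicate 2 (0.0343) or VCaP-CT replicate 2 (0.0228). Same-numbered libraries of 2 sublines correlated between -0.524 and 0.526 in their deviations from the subline means, and not every library correlated best with its own number. For most pairs among VCaP-CT and its derivatives, same-numbered libraries correlated more on average than others, such as 0.286 against -0.146 for VCaP-CT with VCaP-CT-ER. Every pair with VCaP-T went the other way, such as -0.282 against 0.141 with VCaP-CT. Whether the numbers pair the samples is therefore not settled, and the main fit did not pair them. The fit with a replicate block gave 12727 called genes in VCaP-CT against VCaP-T in place of 12821, and 5 members in VCaP-CT-ER against VCaP-CT-BR in place of 4, with UGT2B11 added (adjusted p = 0.0418). All 149 counts of called genes stayed within 1.5 times, and all 30 mean levels moved by less than 1 SD on plain library totals. Outside VCaP-T, UGT2B10 had 0 to 12 counts per library and UGT2B11 0 to 18, and UGT2B28 had 0 to 17 in all 15, so depth limits what can be seen of these genes.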
